A study of Rattus norvegicus with 22 samples.

Results

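The genes described here are the CC chemokines that draw monocytes out of the blood and 2 receptors that answer to them, 9 genes of the 19165 gene symbols on the array: Ccl2, Ccl7, Ccl12, Ccl3, Ccl4, Ccl6, Ccl9, Ccr1 and Ccr2. They were chosen by name, through the gene symbol that the array annotation gives each probe, and where a gene had several probes the brightest over the 22 arrays was used. They were followed in 11 pairs of oral squamous cell carcinoma (OSCC) of the tongue and tongue tissue of normal appearance next to it, and each of 11 male F344 rats gave 1 pair. The rats were approximately 33 weeks old, or younger where killed early, as the paper did with animals that showed signs of a large oral cancer. All 11 rats had been given the carcinogen 4-nitroquinoline-1-oxide (4-NQO) in drinking water, at 20 ppm over 10 weeks. The normal tissue therefore comes from carcinogen-exposed tongues and is not tissue of untreated animals. The labels give those pieces no treatment and put the word untreated in the title of every sample, while the deposited protocol and the paper take both pieces from the same treated rats, and that description is followed here. Each piece is whole tissue, and its RNA was measured with a single dye on an Agilent array, model Rat GE 4x44K v3. Log2 expression below is the log2 processed signal minus that of the array's 75th percentile, so that 0 is the 75th percentile of the array, and levels of different probes are not set against each other.

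Chemokines are small secreted proteins that bind to matrix and to vessel walls and guide leukocytes along a gradient. Monocytes leave bone marrow and blood through CCR2, which binds the products of Ccl2, Ccl7 and, in rodents, Ccl12. CCR1, on monocytes, macrophages and neutrophils, is bound by the products of Ccl3, Ccl6, Ccl7 and Ccl9. The product of Ccl4 attracts monocytes and T cells. In squamous carcinomas these ligands can be made by tumor cells, fibroblasts and the infiltrating leukocytes themselves. Csf1r, the receptor for the macrophage growth factor CSF-1, is carried by monocytes and macrophages and serves below as the gene against which the 9 are set.

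The 7 ligand genes lie on rat chromosome 10, in 2 groups by the positions of their probes in assembly rn4. Ccl2 (chr10:70257919-70257978), Ccl7 (chr10:70268674-70268733) and Ccl12 (chr10:70322447-70322506) form the first group, on the plus strand. Ccl9 (chr10:71645984-71646043), Ccl6 (chr10:71660234-71660293) and Ccl3 (chr10:71744611-71744670), on the minus strand, and Ccl4 (chr10:71760265-71760324), on the plus strand, form the second. The receptor genes lie together on chromosome 8, Ccr1 at chr8:128694469-128694528 on the minus strand and Ccr2 at chr8:128893805-128893864 on the plus strand. Exon and UTR annotation of assembly rn4 was not used here.

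Ccl6 and Ccl9 are closely related, and their sequences are shown first because the array's probes for the pair resemble each other at 1 end. Uptake of the RNA of one by the probe of the other was not tested. The last 26 bases of the probes used for the pair are given here, with the best matching ungapped stretch, 21 bases of which 19 are the same, in capitals. At the best alignment of the whole probes 26 of 59 overlapping bases were the same.
Ccl6: acttTGTGGGGACCCAGCTGTTCTTc
Ccl9: atgccTGTGAGGACCCAGCTGATCTT

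Upstream sequence is shown because most of the ligand genes changed together, as described below. RefSeq (assembly GRCr8) gave a promoter for 6 of the 9 genes, Ccl7, Ccl12, Ccl6, Ccl9, Ccr1 and Ccr2. The 250 bases before the annotated start of the 4 ligand genes follow, 5′ to 3′ on the strand of the gene. Capitals mark matches, on either strand, to the TATA letters TATAAA and to the NF-kB consensus, the binding motif of the factor that inflammatory signals activate.
Ccl7: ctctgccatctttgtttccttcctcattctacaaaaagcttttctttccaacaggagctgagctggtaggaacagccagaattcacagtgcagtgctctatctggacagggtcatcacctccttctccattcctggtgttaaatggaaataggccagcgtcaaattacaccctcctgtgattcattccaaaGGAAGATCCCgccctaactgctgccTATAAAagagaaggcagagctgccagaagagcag
Ccl12: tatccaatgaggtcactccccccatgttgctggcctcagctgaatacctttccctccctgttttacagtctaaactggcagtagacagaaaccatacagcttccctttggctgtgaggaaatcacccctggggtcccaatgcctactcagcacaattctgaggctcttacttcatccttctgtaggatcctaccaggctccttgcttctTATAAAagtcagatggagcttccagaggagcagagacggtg
Ccl6: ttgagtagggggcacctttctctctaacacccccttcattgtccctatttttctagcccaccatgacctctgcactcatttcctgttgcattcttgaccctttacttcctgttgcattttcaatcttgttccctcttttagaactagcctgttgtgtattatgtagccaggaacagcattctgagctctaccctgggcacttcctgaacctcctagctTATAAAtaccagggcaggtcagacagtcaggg
Ccl9: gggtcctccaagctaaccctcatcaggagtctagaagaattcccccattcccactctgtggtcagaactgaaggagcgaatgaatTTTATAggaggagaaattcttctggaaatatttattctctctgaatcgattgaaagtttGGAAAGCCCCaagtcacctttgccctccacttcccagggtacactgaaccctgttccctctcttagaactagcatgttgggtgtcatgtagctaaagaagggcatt

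These stretches lie at chr10:67513845-67514094, plus strand, at chr10:67567626-67567875, plus strand, at chr10:68883367-68883616, minus strand, and at chr10:68868878-68869127, minus strand. TATAAA was found in 4 of the 6 promoters, those of the 4 ligand genes, and in 12.9% of all 33469 promoters of the same length. In Ccl7, Ccl12 and Ccl6 it began 34, 41 and 32 bases before the start site, whereas the match in Ccl9 lies on the other strand, 165 bases before it. The NF-kB consensus was found in 2 of the 6, Ccl7 and Ccl9, and in 6.33% of all promoters. The AP-1 motif TGANTCA was found in Ccl7 alone of the 6 (6.34% of all promoters), and GAGGAA, the core of the site of the myeloid factor PU.1, in Ccl7, Ccl12 and Ccr1 (23.3%). The STAT motif TTCNNNGAA was in none of the 6 (7.67%), and TTNNGCAA, of the C/EBP factors, was in Ccr2 (9.22%). The promoters of Ccl6 and Ccl9 shared an ungapped stretch of 75 bases with 55 the same, the longest among the promoters compared. These are matches of letters and not measured sites.

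All 9 genes rose in OSCC, against a background in which 7.48% of the 19165 gene symbols were called higher and 7.24% lower. A gene was called when its mean change was at least 2-fold and its p from limma, fitted with rat as a block and adjusted by Benjamini-Hochberg over 30367 probes, was below 0.05. The mean rise of the 9 lay between 1.63 and 5.39 log2 units with a median of 2.63, beside a median difference over all probes of -0.24. In whole tissue, more cells of a type and more RNA per cell cannot be told apart. The slide and scan of the arrays are confounded with tissue, since no slide carried both tissues (3 slides held the normal and 4 the OSCC arrays), and all 11 normal arrays but only 2 OSCC arrays (rats 4 and 9) were scanned on the first of 2 days. Scan and tissue cannot be told apart in the other 9 pairs. With scan day as a further term only the pairs of rats 4 and 9 inform the tissue difference. In that fit limma called 0 of the 9 after adjustment, while 8 rose at least 2-fold with an unadjusted p below 0.05. In these same 2 pairs, scanned within 1 day, each of the 9 genes was higher in OSCC, with mean rises from 1.89 for Ccl6 to 7.12 for Ccl3. These means are the estimates of that fit and not a separate result. In the 9 pairs scanned on different days alone, limma called 8 of the 9, the exception being Ccl7 with 1.90 ± 0.69 (SE) and an adjusted p of 0.074.

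**Figure D1:**
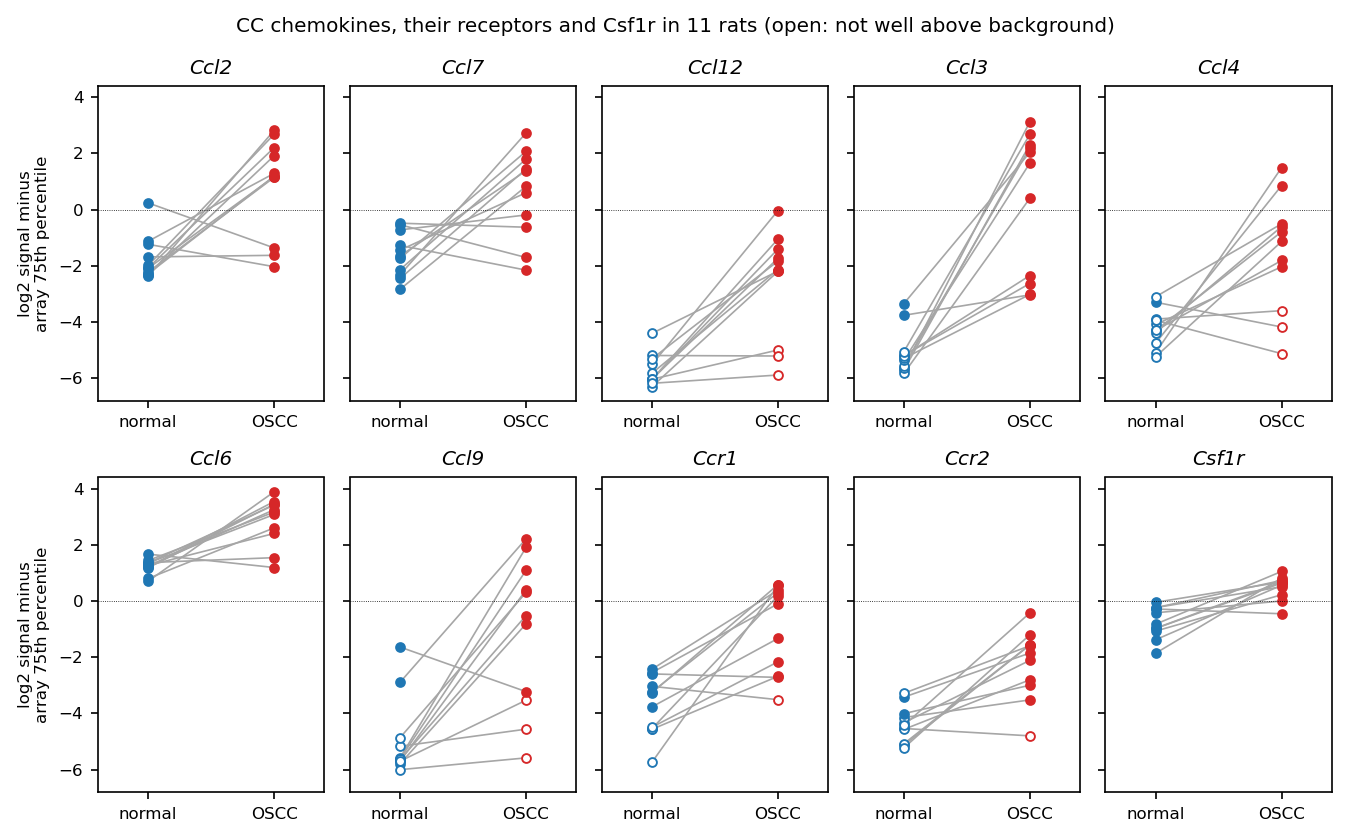
Log2 signal minus the array's 75th percentile (vertical axis) of the 9 genes and Csf1r in normal tissue and OSCC, with a line for each of 11 rats and open circles where the probe was not well above background. Only for Ccl3 do all 11 OSCC values (lowest -3.04) lie above all 11 normal values (highest -3.35); in the other panels the groups overlap through a few rats.

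Of the CCR2 ligands, Ccl2, the main attractant of classical monocytes, had log2 expression from -2.37 to 0.24 across normal pieces (median -2.08) and from -2.03 to 2.82 in OSCC (median 1.19). It was well above background on all 22 arrays. The tissues overlapped, as 3 OSCC arrays lay at or below the highest normal array, and that normal array was the piece of rat 24. The mean rise was 2.59 ± 0.63 log2 units (SE, n = 11 pairs), 6.04-fold, and was seen in 9 of 11 pairs (limma, adjusted p = 0.0073). Ccl7, whose product binds CCR2 and CCR1, ran from -2.84 to -0.49 across normal pieces (median -1.65) and from -2.15 to 2.72 in OSCC (median 0.83). Its rise of 2.16 ± 0.60, 4.47-fold, was seen in 8 of 11 pairs (limma, adjusted p = 0.014), the fewest of the 9 genes. Ccl12, a CCR2 ligand of rodents, was well above background on 0 of 11 normal arrays (from -6.30 to -4.40, median -6.03) and was so on 8 of 11 OSCC arrays (from -5.89 to -0.04, median -2.13). Its fitted rise was 3.11 ± 0.52 in 10 of 11 pairs (limma, adjusted p = 0.0010). The normal arrays give only a bound. With the background correction used here the mean OSCC level was at least 2.44-fold higher. This was taken against the dimmest detected probe of each normal array or, where brighter, the Ccl12 probe itself. After normexp, another background correction, the fitted rise of Ccl12 was 1.04 log2 units, 2.055-fold. That is below the bound, so the bound depends on the background correction.

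Of the other 4 ligands, Ccl3, a product of activated macrophages and neutrophils, changed most among the 9. Its log2 expression lay from -5.83 to -3.35 in normal tissue, with a median of -5.30, where it was well above background on 2 of 11 arrays (rats 24 and 25), and from -3.04 to 3.12 in the OSCC, with a median of 1.65, where it was so on all 11. The fitted rise of 5.39 ± 0.76, 42.0-fold, was present in 11 of 11 pairs (limma, adjusted p = 0.00044). Its size depends on the background correction, as most normal arrays were not well above background, and after normexp it was 2.96 log2 units, 7.77-fold. It is the 1 gene of the 9 whose groups did not overlap, a pattern with OSCC higher that 0.695% of 19124 gene symbols with a value on every array showed. The OSCC values of Ccl3 fell into a run from 0.40 to 3.12 in 7 rats and another from -3.04 to -2.35 in the rats 17, 21, 22 and 24. Ccl4, whose product is closely related to that of Ccl3, was well above background on 1 normal array (levels from -5.23 to -3.10, median -4.29) and on 8 OSCC arrays (from -5.13 to 1.49, median -1.14). It rose by 2.63 ± 0.67, 6.19-fold, in 9 of 11 pairs (limma, adjusted p = 0.0095), or 2.05-fold after normexp, and 3 OSCC arrays lay within the normal range.

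Ccl9, a rodent CCR1 ligand, had log2 expression from -6.00 to -1.64 (median -5.61) in normal pieces and from -5.58 to 2.21 (median -0.52) in OSCC pieces. On normal arrays it was well above background in rats 24 and 25 alone, and on OSCC arrays in 8 of 11 rats. The rise was 3.84 ± 0.80, 14.3-fold, in 10 of 11 pairs (limma, adjusted p = 0.0032), the exception being rat 24, whose normal piece was 1.58 log2 units above its OSCC. After normexp the rise of Ccl9 was 3.51-fold. Ccl6, its neighbor and also a CCR1 ligand, differed in form from the rest. It was well above background on all 22 arrays, with a narrow normal range from 0.71 to 1.67 (median 1.27) and from 1.19 to 3.89 in OSCC (median 3.16). With the probe used here its rise was the smallest of the 9, 1.63 ± 0.29 or 3.09-fold, and was present in 10 of 11 pairs (limma, adjusted p = 0.0013). That probe carries only an Ensembl transcript, and the other probe, designed to a RefSeq transcript of Ccl6 (chr10:71660623-71660682), gave a rise of 2.53 (limma, adjusted p = 0.00014), which lies above the rises of Ccl7 and Ccr2, so the order of the smallest rises depends on the probe.

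The receptors rose as well. Ccr1 stood above background on 7 normal and 10 OSCC arrays, with log2 expression from -5.73 to -2.42 across normal pieces (median -3.26) and from -3.51 to 0.58 in OSCC (median -0.10). It rose by 2.70 ± 0.53, 6.49-fold, in 9 of 11 pairs (limma, adjusted p = 0.0023), or 3.16-fold after normexp, and 3 OSCC arrays lay at or below the highest normal array. Ccr2, which admits monocytes to tissue and is lost as they mature to macrophages, was above background on 2 normal and 10 OSCC arrays. Its levels ran from -5.23 to -3.28 across normal pieces (median -4.42) and from -4.80 to -0.42 in OSCC (median -1.85). The rise was 2.16 ± 0.40, 4.45-fold, in 10 of 11 pairs (limma, adjusted p = 0.0017), and after normexp it was 1.88-fold. The only pair without a rise of Ccr2 was that of rat 17, with -0.26.

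The rise differed between animals. In 7 of 11 rats (4, 9, 11, 13, 16, 25 and 26) all 9 genes were at least 2-fold higher in OSCC, and the median change of the 9 lay between 3.26 in rat 9 and 5.10 in rat 25. In the pair of rat 17 the median was 0.30 and 6 of the 9 were higher, and in that of rat 21 it was 0.63 with 7 higher. In rat 22 it was 0.29 with 6 higher. In rat 24 the median was -0.02, with 4 of 9 higher, and Ccl2 was 1.60, Ccl9 1.58 and Ccl4 1.18 log2 units lower in the OSCC than in the normal piece. Within these rats the genes did not move as a block. Rat 21 had a Ccl12 rise of 4.29 and a Ccl4 rise of 3.51 beside a Ccl6 change of -0.48 and a Ccr1 change of -0.12. Rat 17 had a Ccl6 rise of 2.33, above its median over rats of 1.80, beside changes of 0.06 for Ccl2 and -0.88 for Ccl7. The split of the rats matches array signal. In rats 17, 21, 22 and 24 the OSCC array had a lower 75th percentile than the normal array of the same rat. It was 338.7 against 379.7, 394.6 against 529.3, 438.8 against 483.9 and 533 against 654.9 signal units. In the other 7 rats it was higher on the OSCC array. Whether array signal plays a part in the difference between rats was not tested.

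**Figure D2:**
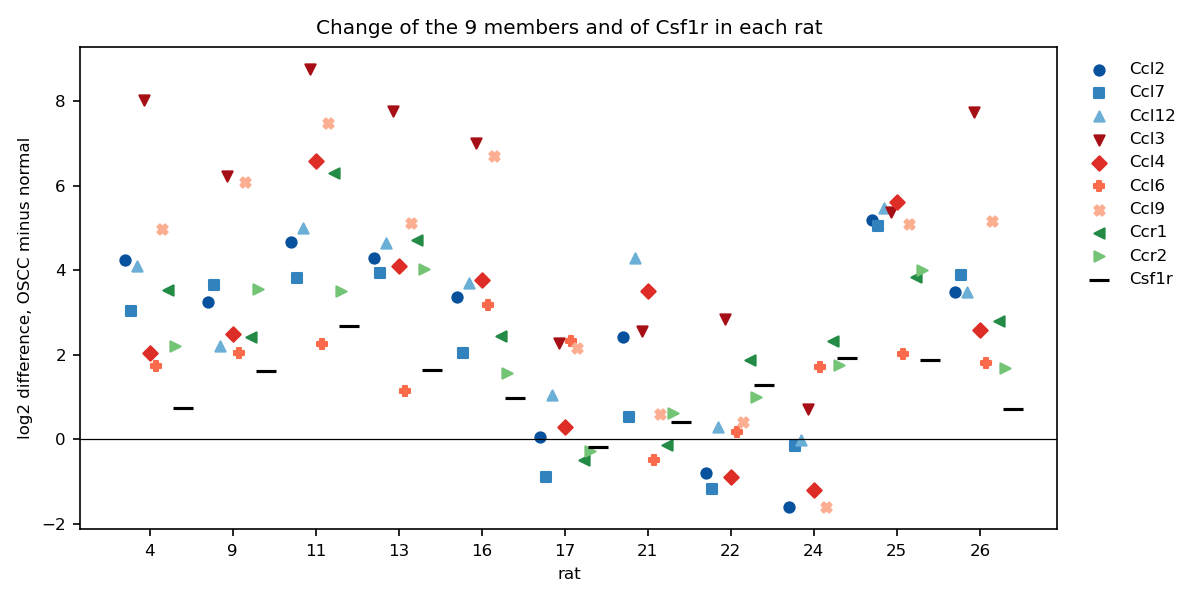
Log2 difference between OSCC and normal tissue (vertical axis) of the 9 genes and of Csf1r (black bar) in each of the 11 rats (horizontal axis). In 7 rats each of the 9 genes lies at or above 1.14 while Csf1r lies between 0.72 and 2.67, and in rats 17, 21, 22 and 24 the 9 genes spread from -1.60 to 4.29, with medians from -0.02 to 0.63.

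Over the 11 pairs the changes of the genes other than Ccl6 ran close together, with Pearson r between 0.54 and 0.94 (median 0.75) over 28 pairs of genes, given as a description because all come from the same arrays. The closest were Ccl2 with Ccl12 (0.94), Ccl12 with Ccl4 (0.93), Ccl3 with Ccl9 (0.92) and Ccl2 with Ccl7 (0.91). With the probe used here Ccl6 stood apart, with r between 0.10 and 0.60 against the other 8, the highest being with Ccl9. The second Ccl6 probe, which gave a larger rise, was not set against the other genes in this way. Ccr1 was nearest to Ccr2, and Ccr2 to Ccl7, both with r of 0.84.

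With its brighter probe, Csf1r itself rose by 1.25 ± 0.23, 2.38-fold, in 10 of 11 pairs (limma, adjusted p = 0.0017). Its normal and OSCC ranges, -1.85 to -0.04 and -0.45 to 1.06, overlapped. The other Csf1r probe, designed to the same transcript, gave a larger rise of 1.60 (limma, adjusted p = 0.00031). Against that rise each mean excess below would be smaller, and the excess over that probe alone was not tested. To ask whether the 9 genes rose by more than Csf1r, a marker of mononuclear phagocytes, its change in each rat was taken from that of every probe. The brighter Csf1r probe was used for this, and the rest was tested by limma over 30366 probes. Of the 9 genes 7 rose by more than Csf1r, against 2.07% of gene symbols. Ccl3 exceeded it by 4.14 ± 0.57 log2 units (limma, adjusted p = 4.1e-06) and Ccl9 by 2.59 ± 0.60 (adjusted p = 0.00038). The excess was 1.45 ± 0.37 for Ccr1 (adjusted p = 0.0011), 1.38 ± 0.51 for Ccl4 (0.014), 1.35 ± 0.50 for Ccl2 (0.016) and 0.91 ± 0.32 for Ccr2 (0.012). The seventh is Ccl12, whose fitted excess of 1.86 ± 0.45 (adjusted p = 0.00060) rests on normal values at background. Its bound of 2.44-fold stands beside the 2.38-fold of the brighter Csf1r probe, and the other Csf1r probe rose by more. An excess is therefore not secured for Ccl12. Ccl7 at 0.91 ± 0.46 (adjusted p = 0.065) and Ccl6 at 0.38 ± 0.35 (adjusted p = 0.31) missed the threshold, which does not show that they changed as Csf1r did. For Ccl6 the excess depends on the probe. With the mean of all probes of each gene, Csf1r included, it was 0.66 ± 0.32 (limma, adjusted p = 0.054), and 7 of the 9 genes passed. After normexp background correction 3 of the 9 passed, Ccl2, Ccl3 and Ccr1, and the excess of Ccl12, Ccl4 and Ccr2 was below 0. That of Ccl9 was 0.73 ± 0.40 (limma, adjusted p = 0.094). The excess of Ccl9, Ccl4 and Ccr2 thus depends on the background correction, as does that of Ccl12. In the 9 pairs scanned on different days 5 passed, without Ccl2 (1.07 ± 0.54, adjusted p = 0.067) and Ccr2 (0.73 ± 0.39, adjusted p = 0.085). With the mean of the 12 macrophage markers in place of Csf1r, the same count of 7 passed.

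Over the 11 pairs, the relations of both receptors with Csf1r passed the test and those of the 7 ligands did not. Pearson r between the change of each gene and that of Csf1r over the 11 pairs was 0.81 for Ccr1 (permutation p = 0.0028) and 0.78 for Ccr2 (permutation p = 0.0047), both with an adjusted p of 0.021 over the 9 relations by Benjamini-Hochberg. Spearman's rho was 0.61 for Ccr1 (permutation p = 0.051, adjusted 0.23) and 0.72 for Ccr2 (permutation p = 0.016, adjusted 0.14), so the ranks alone did not pass the correction. For the 7 ligands r lay between 0.15 (Ccl6) and 0.45 (Ccl7), with permutation p from 0.16 to 0.65 and rho between 0.03 and 0.38 (permutation p from 0.25 to 0.95). Without rats 17 and 11, the 2 farthest from the median Csf1r change, r fell to 0.50 for Ccr1 (exact permutation p = 0.17) and 0.66 for Ccr2 (exact permutation p = 0.064), so the relations rest on those animals. Leaving out rat 11 or rat 17 alone left 0 of the 9 relations past the adjusted p, with 2 at an unadjusted permutation p below 0.05 in each case. The r of the ligands likewise depended on single animals. Without rat 24 it was 0.65 for Ccl4 (permutation p = 0.041, adjusted 0.12), 0.61 for Ccl7, 0.58 for Ccl9 and 0.55 for Ccl2 and Ccl3, and without rats 21, 22 and 24 it was 0.91 for Ccl4 (exact permutation p = 0.0022) over 8 pairs, of which rat 17 stood apart. In those 8 pairs 6 relations passed the adjusted p, with Ccl2, Ccl7 and Ccl9 among them, and in the 7 pairs without rat 17 none did (3 at an unadjusted p below 0.05). Within the 9 pairs scanned on different days r was 0.88 for Ccr1 (exact permutation p = 0.0023) and 0.81 for Ccr2 (exact permutation p = 0.0093). The difference between the receptors' r and the ligands' was not tested. In rats 22 and 24 Csf1r rose by 1.29 and 1.94, at and above the median rise of 1.29, and Ccr1 by 1.88 and 2.32, while Ccl2 was lower in OSCC by 0.79 and 1.60 log2 units. The ligands were not all lower there, since Ccl3 rose by 2.85 and 0.73 and Ccl6 by 0.18 and 1.72.

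**Figure D3:**
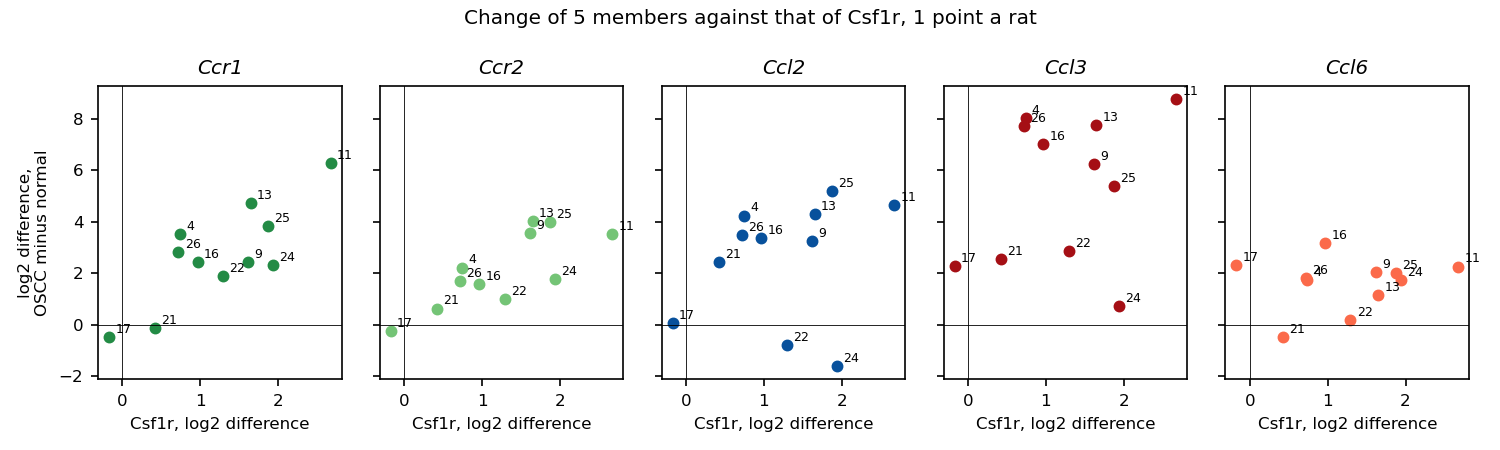
Log2 difference between OSCC and normal tissue of Ccr1, Ccr2, Ccl2, Ccl3 and Ccl6 (vertical axes) against that of Csf1r (horizontal axes), 1 numbered point for each of 11 rats. The receptor points run upward from rat 17 to rat 11 (r = 0.81 and 0.78), whereas rats 22 and 24 lie far below the other ligand points at a similar Csf1r change in the panels of Ccl2 and Ccl3 (r = 0.25 and 0.29).

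The choice of Csf1r matters to that pattern. With the mean change of all 12 macrophage markers in its place, 7 of the 9 relations passed the adjusted p, with r of 0.93 for Ccr1, 0.92 for Ccr2, 0.87 for Ccl7, 0.72 for Ccl3, 0.71 for Ccl2 and Ccl4, and 0.70 for Ccl9 (permutation tests, adjusted p from 0.00032 to 0.022). Of these 12 markers 9 were called higher with a median rise of 1.46, and they include Cd14 (2.11 ± 0.34), a coreceptor for endotoxin, the lysosomal protein gene Cd68 (4.01-fold) and the scavenger receptor gene Msr1 (no normal array well above background, at least 1.28-fold higher). Cd163, a scavenger receptor of resident macrophages, did not pass, at 0.36 ± 0.24 (limma, adjusted p = 0.24).

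Genes whose changes were most like those of each member were found among 11659 gene symbols well above background on at least 11 arrays, by Pearson r over the 11 pairs, again as a description. These r also span the rats with large and with small changes, and no r was computed within either group. Nearest to Ccl3 were Il1b (r = 0.97), the gene of the inflammatory cytokine interleukin 1 beta, and RGD1565672 (0.97), and nearest to Ccl9 were Ddx11 (0.98), of a DNA helicase, and S100a8 (0.97, over 10 pairs), which is abundant in neutrophils. For Ccl2 they were Tnfrsf18 and Fam49b (both 0.97), for Ccl7 Pqlc3 and Palb2 (both 0.98), for Ccl12 LOC300024 (0.95) and RGD1310852 (0.94), and for Ccl4 Efhd2 (0.97) and Klf10 (0.95). Ccl6 was nearest to Hsd17b11 (0.95) and Meis3 (0.94), Ccr1 to Slit3 and Arf2 (both 0.95), and Ccr2 to the prostacyclin receptor gene Ptgir (0.96) and Ubtd2 (0.95). In this ordering Csf1r stood at rank 285 for Ccr1 and 305 for Ccr2, and between rank 3585 and rank 4907 for the ligands.

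The other genes of the pathway, in 4 lists written from general knowledge, held 25 genes found on the array and reported here, of which 10 rose and none was called lower. Of 5 related chemokine genes and receptors 2 rose. They were the receptor genes Cx3cr1 (2.30 ± 0.50), which marks patrolling monocytes, and Ccrl2 (1.35 ± 0.35), whose product binds chemerin. Cx3cr1 likewise stood above background on 0 normal arrays, so its level in OSCC was at least 1.32-fold higher. Ccl5, another ligand gene of CCR1, did not pass, with -0.39 ± 0.26 and a lower value in OSCC in 8 of 11 pairs (limma, adjusted p = 0.23), and neither did the ligand gene Cx3cl1 (-0.22 ± 0.18) or the scavenging receptor gene Ackr2 (-0.03 ± 0.18).

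Of 5 growth factor genes of mononuclear phagocytes and their receptors 1 rose, Csf2rb, the shared chain of the GM-CSF receptor (1.81 ± 0.29; limma, adjusted p = 0.00078; no normal array well above background, at least 1.06-fold higher). The genes of both CSF1R ligands did not pass, Csf1 with 0.16 ± 0.16 and Il34 with -0.05 ± 0.15. Of 10 genes that induce chemokine transcription or take part in NF-kB signaling 6 rose: Il1b (4.17 ± 0.73), Il1a (3.07 ± 0.59), Tlr2 (2.41 ± 0.47), Tlr4 (2.18 ± 0.23), Tnf (2.11 ± 0.52) and Il6 (1.09 ± 0.37). They code for cytokines and for receptors of microbial products. The Il6 probe was detected above background in 4 OSCC and 0 normal pieces, so the size of its rise is not fixed and no fold is bounded. The NF-kB subunit genes Nfkb1 (0.75 ± 0.17) and Nfkb2 (0.88 ± 0.17) had adjusted p below 0.05 but were under 2-fold, and Rela was at 0.05 ± 0.10. Of 5 genes that act below the receptors 1 rose, Rac2, a GTPase of blood cells (1.18 ± 0.32; limma, adjusted p = 0.013), and Gnai2, of the G protein that chemokine receptors use, did not pass (0.34 ± 0.14).

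**Figure D4:**
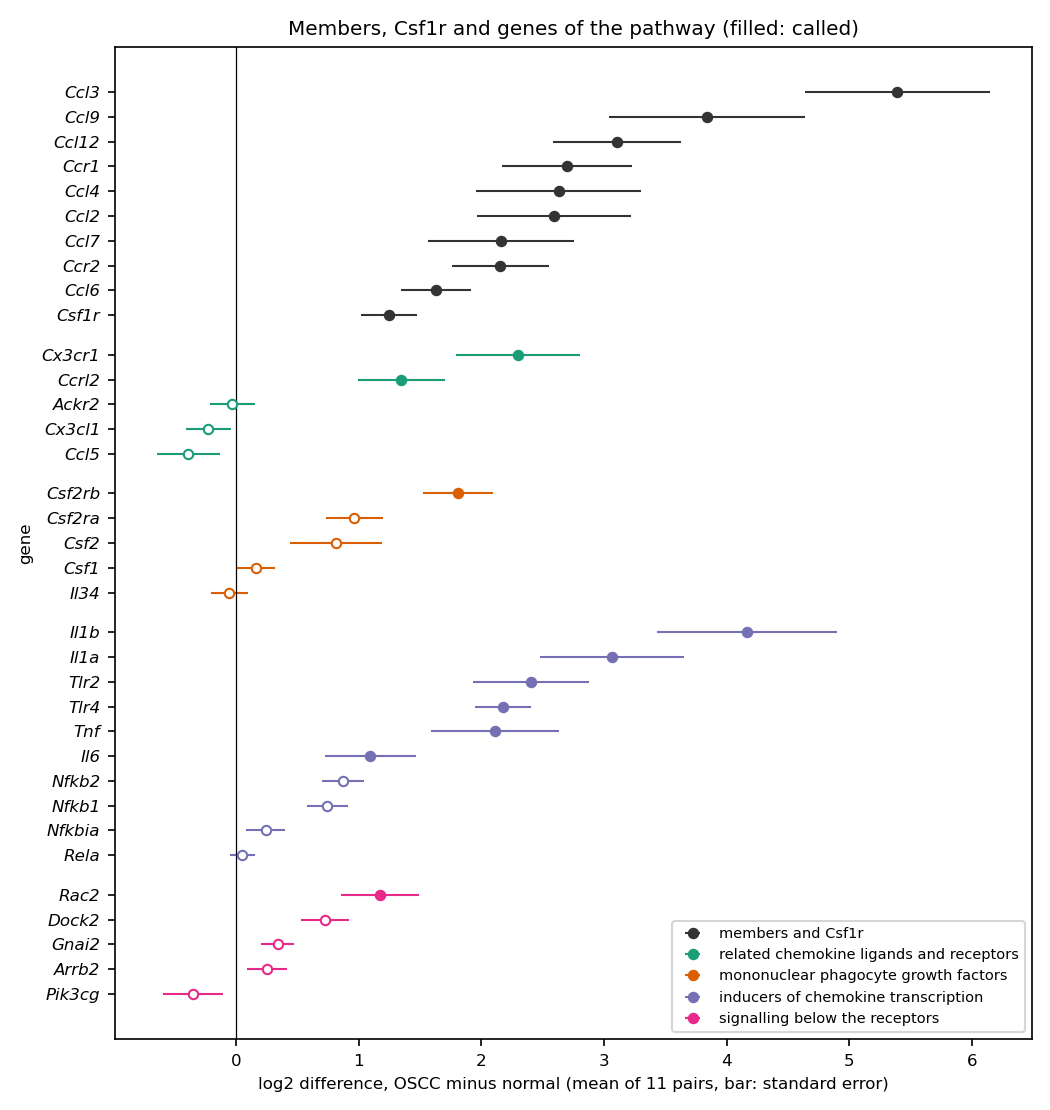
Mean log2 difference between OSCC and normal tissue over 11 pairs, with standard errors from limma (bars), of the 9 genes with Csf1r and of the 25 pathway genes by list, filled where called. The 9 genes lie between 1.63 and 5.39; among the pathway genes the cytokine genes Il1b (4.17) and Il1a (3.07) lie farthest to the right, and Ccl5 (-0.39) lies to the left of 0.

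Some markers of other cells changed between the tissues as well, and their part in the result was not tested. Of 10 neutrophil markers 6 rose, S100a9 by 4.78 ± 0.75 and Csf3r by 3.33 ± 0.63, and the granule genes Mpo and Ltf stayed near background on each of the 22 arrays. Their summed level ran from -0.38 to 2.23 in normal tissue and from 0.78 to 8.63 in OSCC. A summed level adds linear signals, so the brightest probes of a list set it. Here these were S100a9 and S100a8, with OSCC values up to 7.93 and 7.21, beside 1.94 for Csf3r, so the sum is not a measure of neutrophils. For the 12 macrophage markers the summed level was between 4.14 and 5.33 in normal tissue and between 4.80 and 6.52 in OSCC. The leukocyte gene Ptprc rose by 1.50 ± 0.35. Of 7 T cell markers 6 rose, among them Cd8a (3.11 ± 0.62), of 5 dendritic cell markers 1 (Ccr7, 1.71 ± 0.37), of 3 B cell markers 1 (Cd79b, at least 1.62-fold), and of 5 NK cell markers none. Of 5 fibroblast markers 4 rose, Col1a1 by 1.60 ± 0.45. Of 5 skeletal muscle markers 3 fell, Mb by 2.43 ± 0.50 log2 units, and Myh2 rose by 2.17 ± 0.73. None of 4 keratinocyte and 5 endothelial markers was called. Keratin genes Krt5 and Krt14 were well above background on all 22 arrays.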

How the data were processed

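RNA of 22 tissue pieces, 11 pairs, was measured on one-color arrays. The intensity values were background-subtracted and detrended within each array by the authors with Feature Extraction 9.5.3.1, named in the file headers, before they were deposited, and were not scaled between arrays. The deposited series values are a ratio, the signal over the 75th percentile of its array. The comparison took 229320 values and left out low signals. Of those compared, 99.97% equaled that ratio within 2%. The deposited values served as an alternative.

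Control spots and 9196 outlier spots (0.975%) were left out, a probe's spots (10 for Ccl2 and for Ccl3) were averaged on the log2 scale and the array's 75th percentile was subtracted. It was 236.8 to 654.9 signal units on normal arrays and 338.7 to 1414 on OSCC arrays. OSCC and normal tissue were compared over 30367 probes by limma 3.58.1 (R 4.3.3), the model holding rat and tissue, and the code was tested on simulated data. Pairing comes from the shared animal. Over probes, the residuals of both tissues of an animal about the tissue means correlated between -0.21 and 0.24, with a median of -0.025. The pairing thus rests on the labels and is not seen in these correlations. S100a8 had no value on 1 array. Relations used 100000 permutations, two-sided, or all permutations under 10 pairs. Among listed genes, Itgax, Cd79a, Ackr1 and Rel were not matched by symbol or accession, and 1 gene of the pathway lists is not reported here. The number of arrays limits precision.

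Named were all 9 genes, Csf1r, the 2 genes most like each member and some genes of each list. The plan was to name up to 4 genes of a list, the largest called changes first. It was not kept in every list. The members, lists and tests were chosen with earlier results of these data known. The paper names a t-test at 2-fold, which was run as the methods' paired t-test.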

Additional observations from a re-analysis of the deposited data

How the results depend on the processing

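The 9 genes were all called after quantile normalization, median scaling of arrays, scaling by the 75th percentile of probes above background on every array, with the authors' scaled values, with the mean of all probes, with slide as a random block, by the methods' paired t-test with and without adjustment, without any 1 rat, and without rats 21, 22 and 24. Normexp background correction gave 8 (Ccr2 fell below 2-fold), the 9 pairs scanned on different days gave 8 (without Ccl7), and the filter on dim probes kept 6 of the 9, all called. With no replicate block, that is without the pairing, 9 were called. With scan day as a term, where only the pairs of rats 4 and 9 inform the tissue difference, the counts were 0 of the 9 genes (8 at an unadjusted p below 0.05 and 2-fold) and 0 pathway genes (4 unadjusted). In that fit limma called 0 probes higher and 3 lower in all.

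Pathway genes called higher numbered 3 after normexp and between 9 and 11 without any 1 rat, beside 10. Genes that rose by more than Csf1r numbered 3 after normexp, 4 with the filter on dim probes, which removes Ccl12, Ccl4 and Ccl9, and between 6 and 8 without any 1 rat, beside 7. After normexp the excess over Csf1r turned to -0.047 for Ccl12, -0.050 for Ccl4 and -0.18 for Ccr2. Relations with Csf1r that passed numbered 2. They were 0 after normexp, 7 with the 12 macrophage markers in place of Csf1r, and between 0 and 2 without any 1 rat, with 0 when rat 11 or rat 17 was left out. A rule that leaves out a pair standing far apart on the Csf1r axis removed a further rat in 4 settings, and keeping that rat was added after seeing the data. With the mean of all probes the count was 0 without rat 17 and 1 (Ccr2) with it, without rat 21 it was 0 without rat 17 and 2 with it, without rats 21, 22 and 24 it was 0 without rat 17 and 6 with it, and without rat 17 it was 0 both with and without rat 11. At an unadjusted p below 0.05 the count was 0 after normexp, 1 and 2 with the mean of all probes and 3 and 7 without the 3 rats. With 10 neutrophil markers in place of Csf1r, chosen after seeing the data, the pairs fell into separate clusters and 0 relations passed within the 7 pairs of the larger one. The cause of these shifts was not tested. The scaling also moves the whole array: the median difference of all probes, -0.24 here, was -0.03 under quantile normalization and -0.44 under median scaling, where 1541 probes were called higher and 3154 lower in place of 2083 and 2118, and normexp gave 686 and 1015. The 9 genes were higher under each. The sizes for Ccl3, Ccl12, Ccl9, Ccl4 and Ccr2, near background in normal tissue, are the least certain. Folds given above as a lower bound hold for the main background correction only.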

Other observations

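Over the mean change of the 10 neutrophil markers the pairs fell into separate clusters, and within the larger one, 7 pairs (rats 4, 9, 11, 13, 16, 25 and 26), the relation of each gene to that mean was computed after the data had been seen. Pearson r was 0.76 for Ccl4 (exact permutation p = 0.036, adjusted 0.22 over the 9 relations) and for Ccr1 (exact permutation p = 0.053, adjusted 0.22), 0.70 for Ccl9 (exact permutation p = 0.072, adjusted 0.22), and -0.03 for Ccl7 (exact permutation p = 0.95). None passed the correction. Spearman's rho was 0.71 for Ccl4 (exact permutation p = 0.088) and 0.54 for Ccr1 (exact permutation p = 0.24).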
